A study of Arabidopsis thaliana with 30 samples.

Results

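A group of 172 nuclear genes of Arabidopsis thaliana had higher transcript levels in the petiole of a detached wild-type leaf at 96 h than at 0, 24 and 48 h. They were chosen from 33323 nuclear genes by their mean level in 3 wild-type (WT) libraries per time, in CPM, the count scaled to a common total of nuclear gene counts per library. The WT mean at 96 h had to be at least 10 CPM, at least 4 times that at 0 h, at least 4 times that at 24 h and at least 2 times that at 48 h, with 0.1 CPM added to each mean. The WT levels at 0, 24, 48 and 96 h are therefore what chose the genes and are given as a description. The eur1-11 libraries and the WT libraries of 72 h were not used in the choice, and tests were made on these only.

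The study took RNA from petioles of the 4th rosette leaves of 21-day-old soil-grown plants, excised and kept on MES solution in continuous white light, and sequenced it on the NovaSeq platform. Both genotypes carried the ORE1::LUC reporter in the Columbia background. The mutant, eur1-11, is 1 allele of EAR1 from an EMS (chemical mutagenesis) screen of that reporter line, and the WT was the unmutagenised reporter line. Each genotype was sampled every 24 h up to 96 h, starting at excision (0 h), with 3 replicates, 30 libraries in all, and the labels name the tissue both petiole and excised leaf.

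A detached Arabidopsis leaf meets wounding, loss of the root system and the onset of new root formation at the cut. Jasmonate is the main wound hormone of leaves, and its late targets include storage proteins, lectins and proteins of the ER body, an endoplasmic reticulum compartment that stores beta-glucosidases against herbivores. Suberin, a waxy polyester, seals wounds and the root endodermis, and cells short of oxygen switch to alcoholic fermentation through pyruvate decarboxylase and alcohol dehydrogenase.

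Sequences just upstream of 5 of these genes are shown because they carry the main patterns below: VSP1 (jasmonate), PYK10 (ER body), the tandem defensin genes PDF1.2 and PDF1.2c, and the pyruvate decarboxylase gene AT4G33070. Each is the 250 bases before the gene start in RefSeq's TAIR10.1 annotation, 5′ to 3′ on the gene's own strand, which is the minus strand for all 5. The windows were chr5:8509202-8509451 for VSP1, chr3:2843782-2844031 for PYK10, chr5:17907639-17907888 for PDF1.2, chr5:17909508-17909757 for PDF1.2c and chr4:15954804-15955053 for AT4G33070. Capitals mark matches, on either strand, to the W-box core TTGAC, the TGA factor core TGACG or the GCC-box GCCGCC, and TTGAC and TGACG can share bases.
VSP1: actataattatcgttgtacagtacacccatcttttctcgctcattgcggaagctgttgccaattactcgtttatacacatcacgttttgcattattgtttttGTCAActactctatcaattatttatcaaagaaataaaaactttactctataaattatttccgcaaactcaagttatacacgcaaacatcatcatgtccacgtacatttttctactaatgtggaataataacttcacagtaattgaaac
PYK10: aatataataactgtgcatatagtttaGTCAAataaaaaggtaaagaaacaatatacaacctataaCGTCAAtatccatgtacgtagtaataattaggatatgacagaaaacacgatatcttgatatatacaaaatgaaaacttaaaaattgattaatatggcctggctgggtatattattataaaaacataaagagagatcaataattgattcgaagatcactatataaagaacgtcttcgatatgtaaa
PDF1.2: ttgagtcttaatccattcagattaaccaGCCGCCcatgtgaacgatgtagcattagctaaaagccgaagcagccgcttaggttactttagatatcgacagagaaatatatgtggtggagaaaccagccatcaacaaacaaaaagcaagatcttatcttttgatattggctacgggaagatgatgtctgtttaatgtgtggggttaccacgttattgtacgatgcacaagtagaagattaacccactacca
PDF1.2c: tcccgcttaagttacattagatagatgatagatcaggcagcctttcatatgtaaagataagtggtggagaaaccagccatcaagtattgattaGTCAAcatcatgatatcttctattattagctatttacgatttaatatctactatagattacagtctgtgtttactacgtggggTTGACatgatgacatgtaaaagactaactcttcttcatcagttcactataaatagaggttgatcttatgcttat
AT4G33070: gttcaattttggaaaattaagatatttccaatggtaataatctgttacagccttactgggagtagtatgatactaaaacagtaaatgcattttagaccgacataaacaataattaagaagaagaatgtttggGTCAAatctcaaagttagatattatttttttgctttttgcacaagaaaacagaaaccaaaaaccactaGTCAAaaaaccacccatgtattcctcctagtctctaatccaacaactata
PDF1.2 held 1 GCC-box and no W-box core, whereas its neighbour PDF1.2c held 2 W-box cores and no GCC-box. PYK10 and AT4G33070 held 2 W-box cores each and VSP1 held 1. Over all 172 late genes the W-box core was present in 49.4% of the windows, against 45.2% of the 21222 tested genes with a window, and the TGA core in 20.3% against 19.3%. Shares for the GCC-box (1.74% against 1.97%), the G-box CACGTG (9.88% against 7.12%), the auxin response element TGTCTC (11.6% against 10.6%) and the MYB element ACCAAC (13.4% against 11.6%) were also near those of all genes. These matches are descriptions of the letters in the windows.

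Libraries held 22482318 to 43243161 gene counts, of which 20.6% to 63.6% lay in organelle genes, and 10106273 to 30846364 in nuclear genes. A count of 3 corresponded to 0.0973 to 0.297 CPM, and counting error only is covered by this floor. EAR1, the mutated gene, was read in every library, at 117 to 561 CPM in eur1-11 and 227 to 644 CPM in WT, and at 72 h its log2 difference was -0.29 ± 0.16 (SE, adjusted p = 0.923), which does not check a point mutation. No marker gene of the cell types checked (wood, cambium, phloem, surface layers, mesophyll and root tissues) was among the 172 genes. With 3 to 8 markers per cell type, this could come from the small number of markers alone. The summed mesophyll markers had 653 to 1250 CPM in eur1-11 at 96 h, against 18700 to 28100 CPM at 0 h, and 914 to 1280 CPM in WT at 96 h, against 16800 to 21500 CPM at 0 h, and their part in the late genes' course was not tested. The summed root hair markers stayed at or under 0.341 CPM in every library. In whole petioles, fewer cells of a type and less RNA per cell cannot be told apart.

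Replicate 3 stood apart in both genotypes, over all genes as well as for the late genes. Disagreement in counts over all genes (chi-square per degree of freedom) was 5.27 to 14.41 between replicates 1 and 2 of a group. In pairs with replicate 3 it was 25.8 to 141.5. For the late genes, the level of replicate 3 over the mean of replicates 1 and 2 had a median over the 172 genes of 0.385, 0.527 and 0.66 at 48, 72 and 96 h in eur1-11, and of 0.423, 0.575 and 0.746 in WT. Replicate 3 was the lowest of the 3 for 143, 144 and 122 genes in eur1-11 and for 135, 136 and 109 genes in WT. Among all nuclear genes of 1 CPM or more it was the lowest in 31.0% to 41.4% of genes in eur1-11 and in 32.1% to 54.6% of genes in WT at these times. The labels do not say what a replicate number stands for, and p-values below measure the spread between these libraries only. Fits without replicate 3 rest on replicates 1 and 2, the most alike pair in every group.

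The late genes held a small part of the petiole's transcripts at 0 h and a larger one at 96 h in both genotypes. Their summed share of nuclear counts at 0 h was 0.243% to 0.282% in eur1-11 libraries and 0.15% to 0.275% in WT libraries. At 96 h the share was 3.6% to 6.12% in eur1-11 and 3.09% to 6.71% in WT. The range of the 3 libraries of eur1-11 overlapped that of WT at both times. Relative to each gene's own WT mean at 96 h, the median gene in eur1-11 stood at 1.56%, 11.7%, 33.1%, 69.5% and 98.4% at the 5 times in order, and the median gene in WT at 1.74%, 8.16%, 22.9%, 61.2% and 100%.

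**Figure D1:**
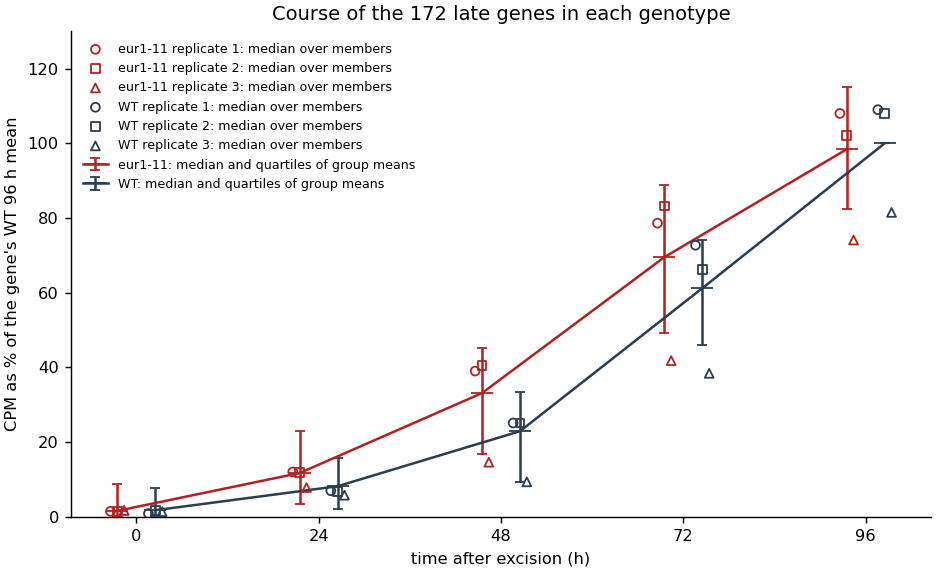
Level of the 172 late genes at 0 to 96 h after excision, as a percentage of each gene's WT mean at 96 h, in eur1-11 (red) and WT (dark blue). Lines join the medians over genes of the group means, bars give the quartiles, and open symbols give the median over genes in each replicate; at 72 h the replicate 3 medians were 41.8% in eur1-11 and 38.4% in WT, below those of replicates 1 and 2.

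The late rise was present in eur1-11, whose libraries had no part in the choice. At 96 h against 24 h, 169 of the 172 genes were higher in eur1-11 and 0 were lower by edgeR's quasi-likelihood test at an adjusted p under 0.05, whereas 17.1% of the 21472 genes tested were higher and 18.9% lower. The median log2 fold change was 2.96 over the late genes and -0.01 over all genes. Against 0 h, 163 genes were higher and 0 lower (36.4% and 31.6% of all genes), with medians of 5.03 and 0.11. Of the 172 genes, 24 had no count at 0 h and 4 had none at 24 h in eur1-11, and with these at the bound set by 3 counts over the group the medians stayed 5.03 and 2.96. Against 48 h, 125 genes were higher and 0 lower (5.48% and 4.96% of all genes), with medians of 1.69 and 0. Without replicate 1 and without replicate 2 these 125 calls became 11 and 23, and without the replicate number as a block they became 79. Shares of all genes in these fits were not computed.

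Only 4 late genes were higher at 96 h than at 72 h in eur1-11, against 0.0326% of all genes higher and 0.00466% lower, and 0 were lower. The pyruvate decarboxylase gene AT4G33070 had 58.6, 35.7 and 12.7 CPM in eur1-11 at 96 h and 5.82, 9.36 and 4.02 CPM at 72 h, a log2 fold change of 2.36 ± 0.30 (SE, adjusted p = 0.00178). PEN1, a triterpene synthase gene expressed in roots, had 31.8, 29.1 and 18.3 CPM at 96 h and 9.15, 7.62 and 2.76 CPM at 72 h (2.13 ± 0.28, adjusted p = 0.00178). The serine carboxypeptidase-like gene scpl30 had 14.8, 13.6 and 11.8 CPM at 96 h and 3.05, 2.72 and 0.804 CPM at 72 h (2.75 ± 0.37, adjusted p = 0.00178). AT4G23680, annotated as a lipid transport protein, had 48.7, 32.2 and 13.5 CPM at 96 h and 10.3, 8.30 and 4.02 CPM at 72 h (1.99 ± 0.35, adjusted p = 0.0331). For each of the 4 genes all libraries of 96 h lay above those of 72 h. None of the 4 calls was made without replicate 1, without replicate 2 or without the replicate block, while 75 genes passed without replicate 3. By unadjusted p under 0.05, 57 late genes were higher and 1 was lower. For all genes, neither the calls of these other fits nor the unadjusted shares were computed.

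The members differed in how far they had come by 72 h, a time the rule did not use. The level at 72 h had a median of 70.1% of that at 96 h in eur1-11 (15.5% to 279%) and 61.2% in WT (7.68% to 224%). It was above the 96 h level for 16 genes in eur1-11 and 10 in WT, and under 25% of it for 11 genes in eur1-11 and 17 in WT. Peroxidase superfamily and anthocyanin genes were the furthest on, with group medians of 80.6% and 80.5% in eur1-11 and 83.7% and 75.8% in WT. Jasmonate and low-oxygen genes were the furthest behind, with medians of 29.6% and 28.5% in eur1-11 and 17.9% and 31.4% in WT.

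**Figure D2:**
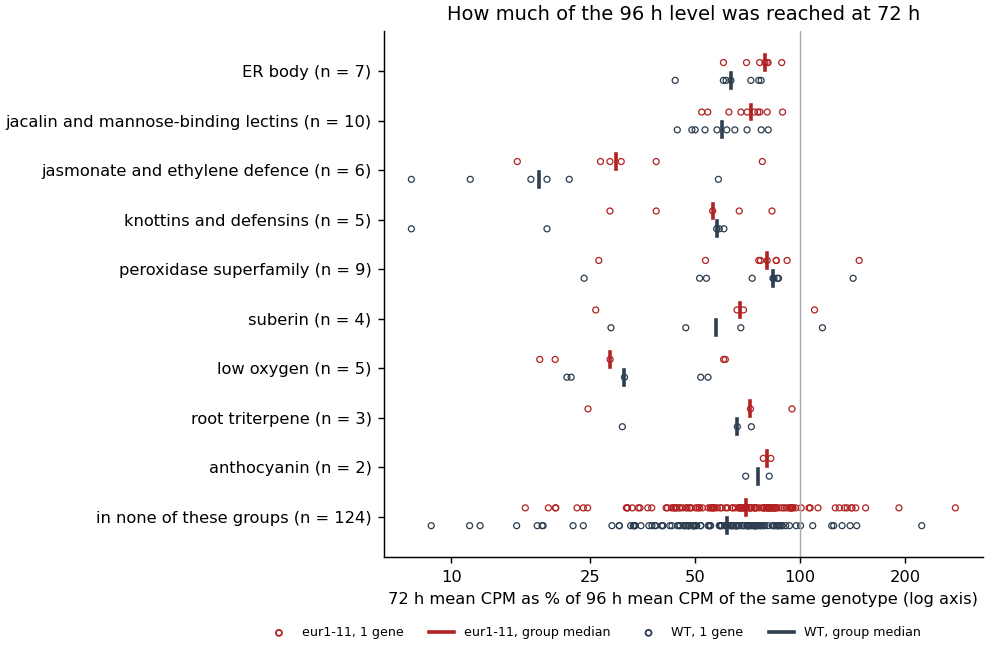
Level at 72 h as a percentage of the level at 96 h in the same genotype (log axis) for each of the 172 late genes, by functional group, in eur1-11 (red, upper row of each pair) and WT (dark blue, lower row). Circles are genes and bars are group medians; the jasmonate and low-oxygen medians lie between 17.9% and 31.4% in both genotypes, whereas the other groups lie between 56.2% and 83.7%.

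ER body genes included the late gene with the most counts. BGLU18, a beta-glucosidase of wound-induced ER bodies, reached 18689.6, 18508 and 12626 CPM in eur1-11 at 96 h, against 5172, 5493 and 5097 CPM at 24 h (1.49 ± 0.54, adjusted p = 0.036). In WT it had 26211, 20411 and 10449.7 CPM at 96 h and 3175, 2931 and 5122 CPM at 24 h. All 3 libraries of 96 h lay above those of 24 h in eur1-11, but the call was lost without the replicate block (1.56, adjusted p = 0.0604). In WT the rule itself required the 96 h mean to be above that of 24 h. PYK10, the main ER body beta-glucosidase of roots and seedlings, had 1227, 1153 and 1187 CPM in eur1-11 at 96 h, against 36.9, 35.2 and 158 CPM at 24 h (3.88 ± 0.74, adjusted p = 0.000457). At 96 h WT petioles had 1200.2, 1072 and 1202 CPM of PYK10. The 2 genotypes overlapped at that time, and replicate 3 was not the lowest library there in either genotype.

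Structural and accessory genes of the ER body followed. NAI2, which is needed for ER body formation, had 288 ± 28.4 CPM in eur1-11 and 301 ± 17.7 CPM in WT at 96 h (SD, n = 3 each), and was 2.01 ± 0.51 higher in log2 than at 24 h in eur1-11 (adjusted p = 0.00445). The membrane proteins MEB1 (1.24 ± 0.20, adjusted p = 8.68e-05) and MEB2 (1.53 ± 0.39, adjusted p = 0.00411), the beta-glucosidase BGLU22 (6.85 ± 0.73, adjusted p = 8.79e-07) and the PYK10-binding lectin PBP1 (2.54 ± 0.52, adjusted p = 0.000874) were also higher at 96 h than at 24 h in eur1-11. In a list of 10 ER body genes, made after results of these data were seen, 7 were late genes, and all 9 genes tested were higher in eur1-11 at 96 h than at 24 h. TSA1, another ER body gene, was just outside the rule with a WT 96 h level of 3.907 times that at 24 h.

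Jacalin and mannose-binding lectins, sugar-binding proteins of which some act with ER body enzymes or with glucosinolate breakdown, made up 10 of the late genes (5.81%), against 0.149% of all genes tested. All 10 were higher in eur1-11 at 96 h than at 24 h, as were 23 of the 32 lectin genes tested, with 0 lower. JAL23 had 3122, 2927 and 1302 CPM in eur1-11 at 96 h, against 442, 454 and 392 CPM at 24 h (2.22 ± 0.53, adjusted p = 0.0029). In WT it had 3098, 2493 and 1003 CPM at 96 h and 197, 166 and 322 CPM at 24 h. Replicate 3 was the lowest of the 96 h libraries in both genotypes, and in eur1-11 it still lay above every 24 h library. JR1, a jasmonate-responsive lectin, was the late gene nearest to the 24 h threshold, at 4.005 times. NSP1, a specifier protein that directs glucosinolates to nitriles, and MBP1, a myrosinase-binding protein, were 1.82 ± 0.45 (adjusted p = 0.00368) and 2.56 ± 0.73 (adjusted p = 0.00892) higher in log2 at 96 h than at 24 h in eur1-11.

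**Figure D3:**
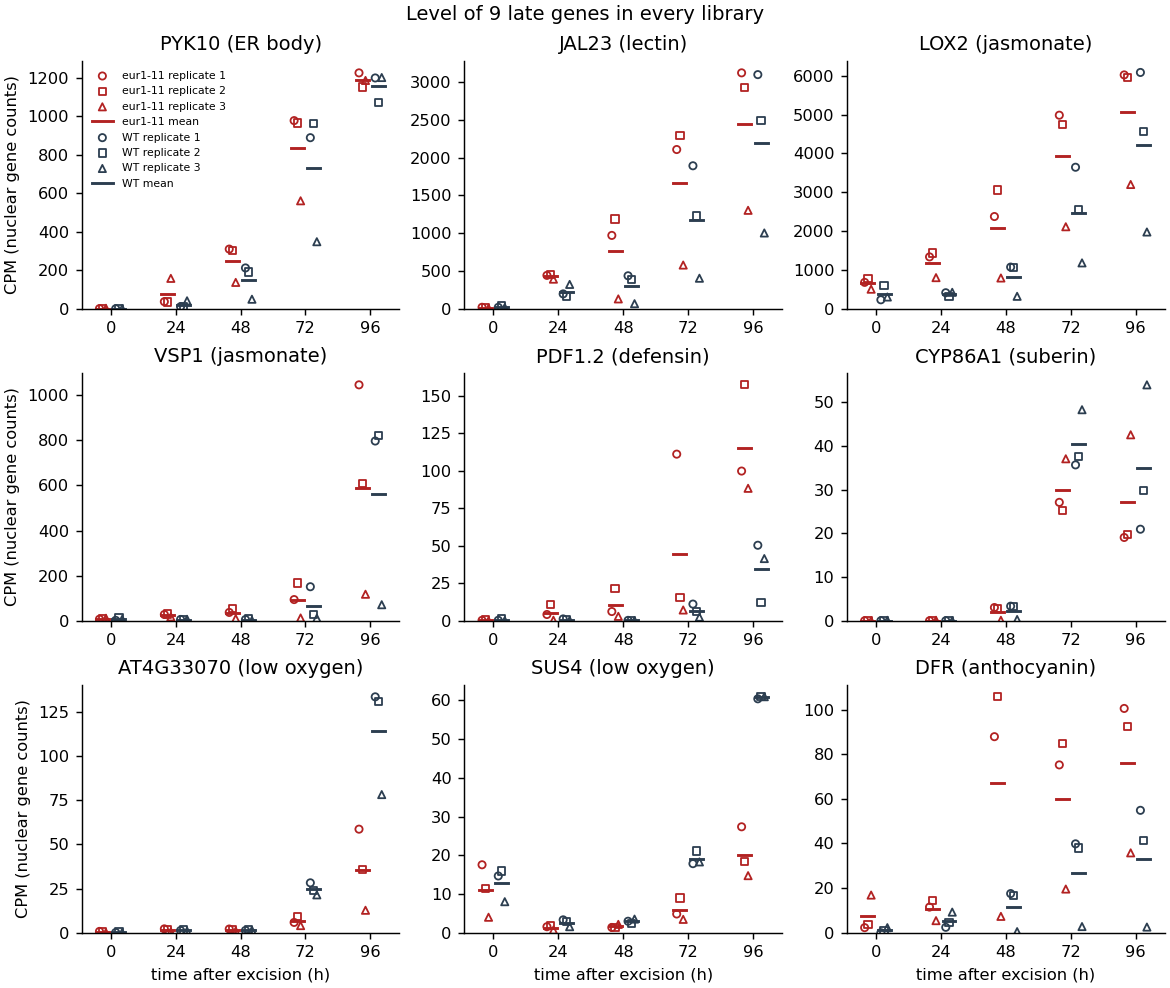
CPM of 9 late genes in every library against time after excision, eur1-11 in red left of WT in dark blue; circles, squares and triangles are replicates 1, 2 and 3 and bars are group means. PYK10 has nearly the same level in both genotypes at 96 h. AT4G33070 and SUS4 lie lower in eur1-11 than in WT in every library at 72 h, and also at 96 h, where the rule used the WT level. DFR in replicate 3 lies below replicates 1 and 2 at 48 to 96 h in both genotypes.

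A list of jasmonate and ethylene defence genes held 6 of the late genes. Of its 14 genes, all tested, 8 were higher, 0 were lower and 6 were not called at 96 h against 24 h in eur1-11. LOX2, the leaf lipoxygenase of jasmonate synthesis and itself jasmonate-responsive, had 6023, 5950.0 and 3200.5 CPM in eur1-11 at 96 h, against 1336, 1435 and 802 CPM at 24 h (1.97 ± 0.36, adjusted p = 0.00032). The 96 h libraries lay above all those of 24 h. VSP1, a vegetative storage protein used as a jasmonate marker, had 1046, 609 and 118 CPM in eur1-11 at 96 h, against 27.8, 29.8 and 17.2 CPM at 24 h (4.10 ± 0.89, adjusted p = 0.0014). WT petioles had 797, 820.2 and 71.0 CPM of VSP1 at 96 h. Replicate 3 was far below the other libraries in both genotypes, and yet in eur1-11 it lay above all libraries of 24 h. VSP2, its close paralog next to it on chromosome 5, had 761, 586 and 103 CPM in eur1-11 at 96 h and 44.5, 44.4 and 102 CPM at 24 h and missed the test (2.37 ± 0.94, adjusted p = 0.0536), with the lowest library of 96 h at about the highest of 24 h. THI2.1, an antimicrobial thionin, was 3.23 ± 0.85 higher in log2 at 96 h than at 24 h (adjusted p = 0.00633). CORI3, a coronatine- and jasmonate-induced lyase gene outside the list, was 1.89 ± 0.59 higher (adjusted p = 0.0159). Reads shared between VSP1 and VSP2, or between PDF1.2 and PDF1.2c, could be split or dropped by the counting.

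Most synthesis and repressor genes of the same pathway, LOX2 left out, were lower at 96 h than at 0 h in eur1-11. In another list made after results were seen, of 15 genes for jasmonate synthesis, MYC2 and JAZ repressors, 0 were late genes, and in eur1-11 14 were lower at 96 h than at 0 h, with a median log2 fold change of -2.37, while 1 was lower and 0 were higher at 96 h than at 24 h. LOX2, a synthesis gene and a late gene, was not counted in this list, so its 0 late genes partly follow from how it was made. The list is also short enough to hold 0 late genes by its size alone. Of all genes tested, 31.6% were lower in eur1-11 at 96 h than at 0 h.

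The jasmonate and defensin genes had higher means in eur1-11 than in WT at 24, 48 and 72 h. The ratio of eur1-11 to WT means had a median over the 6 jasmonate genes of 1.09, 4.61, 6.36, 1.92 and 1.29 at the 5 times in order, and all 6 met the late rule in eur1-11 as well. Since the rule needed low WT levels at 24 and 48 h, ratios above 1 at these times are partly fixed by it. At 72 h, the time the rule did not use, 0 of the 6 were called higher in eur1-11. At 0 h the mean was higher in eur1-11 for 4 of these 6 genes and for 1 of the 5 knottins and defensins. PDF1.2, a plant defensin induced by jasmonate with ethylene, had 111, 15.4 and 7.16 CPM in eur1-11 at 72 h, against 11.1, 6.03 and 2.39 CPM in WT. PDF1.2c had 65.6, 6.56 and 1.69 CPM in eur1-11 at 72 h, against 2.97, 1.89 and 0.184 CPM in WT. In each pair of libraries with the same replicate number eur1-11 lay above WT for both defensins, while the groups overlapped across numbers, and neither difference passed (PDF1.2 2.60 ± 0.81, adjusted p = 0.323; PDF1.2c 3.67 ± 1.03, adjusted p = 0.2). Without replicate 3 both did pass, at 2.79 (adjusted p = 0.0201) and 3.80 (adjusted p = 0.0186). PDF1.3, a defensin gene of the same list that is not a late gene, had 7.78, 1.85 and 0.728 CPM in eur1-11 at 72 h, against 0.171, 0.0591 and 0.0614 CPM in WT (4.84 ± 1.07, adjusted p = 0.0418), with no overlap, and was the 1 gene of the 14 in the list that differed by the test. The WT values lie near the floor of 3 counts, and the call was lost without replicate 1 (4.30, adjusted p = 1), without replicate 2 (4.89, adjusted p = 0.647) and without the replicate block (4.94, adjusted p = 0.0979). At 96 h PDF1.2 had 115 ± 36.9 CPM in eur1-11 and 34.6 ± 20.04 CPM in WT (SD, n = 3 each), a comparison that the rule used and that was not tested. With PDF2.1, AT2G43530 and AT2G43535 they formed a group of 5 knottins and defensins, of 9 such genes tested, all 5 higher in eur1-11 at 96 h than at 24 h.

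Genes lower in eur1-11 than in WT at 72 h came from the low-oxygen group. The test called 3 late genes lower and 0 higher in eur1-11, against 0.0605% and 0.419% of all genes, and the median log2 difference was 0.16 over the late genes and -0.02 over all genes. AT4G33070 had 5.82, 9.36 and 4.02 CPM in eur1-11 and 28.2, 23.8 and 21.4 CPM in WT (-1.99 ± 0.30, adjusted p = 0.00111). SUS4, a sucrose synthase gene that low oxygen induces, had 4.84, 8.98 and 3.45 CPM in eur1-11 and 17.8, 21.1 and 18.3 CPM in WT (-1.76 ± 0.35, adjusted p = 0.0174). The stearoyl-ACP desaturase family gene FTM1 had 2.104, 3.58 and 1.92 CPM in eur1-11 and 8.42, 8.33 and 9.08 CPM in WT (-1.84 ± 0.38, adjusted p = 0.0436). In each of the 3 genes every eur1-11 library lay below every WT library. The calls were lost without replicate 1, without replicate 2 and without the replicate block (AT4G33070 log2 -1.92, adjusted p = 0.059; SUS4 -1.71, 0.0641; FTM1 -1.75, 0.243), and without replicate 3 they stood among 21 late genes called lower, while 39 were called higher. With only the libraries of these groups in the fit, 11 late genes were lower and 30 higher. How many of all genes were called in these other fits was not computed.

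The other 2 late genes of the group missed the test. ADH1, the alcohol dehydrogenase of fermentation, had 33.9, 35.8 and 31.1 CPM in eur1-11 at 72 h, against 55.2, 52.8 and 54.6 CPM in WT, with no overlap (-0.68 ± 0.17, adjusted p = 0.0831). It passed with DESeq2 (-0.67, adjusted p = 0.0263), with only the libraries of these groups (-0.66, adjusted p = 0.00753) and without replicate 3 (-0.60, adjusted p = 0.000324). LBD41, a transcription factor of the core low-oxygen response, had 27.6, 28.6 and 21.8 CPM in eur1-11, against 30.8, 31.7 and 25.1 CPM in WT, lower in eur1-11 in each same-numbered pair but with overlap across numbers (-0.16 ± 0.22, adjusted p = 1). In the list of 15 low-oxygen genes, 5 were late genes, and 3 of the 15 were lower and 0 higher in eur1-11 at 72 h. The other 12 were not called, and the median log2 difference over the list was -0.15. PDC2, the other pyruvate decarboxylase gene of the list, had a difference of the opposite sign (0.67 ± 0.25, adjusted p = 0.537).

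The same 5 genes were higher at 96 h than at 24 h in eur1-11. FTM1 had no count at 0 or 24 h there and 20.4, 12.6 and 5.37 CPM at 96 h, which was at least 213-fold higher than at 0 h and at least 252-fold higher than at 24 h, against 3 counts over each group. AT4G33070 was 4.54 ± 0.36 higher in log2 (adjusted p = 2.79e-08) and ADH1 1.66 ± 0.17 (adjusted p = 5.56e-07). SUS4 had 27.4, 18.4 and 14.7 CPM at 96 h, against 1.55, 1.77 and 0.694 CPM at 24 h (3.81 ± 0.41, adjusted p = 1.07e-06), but 17.6, 11.4 and 3.997 CPM at 0 h (0.33 ± 0.34, adjusted p = 0.404). Its libraries of 96 h and 0 h overlapped. At 96 h the 3 eur1-11 libraries lay below the WT libraries for AT4G33070 (58.6, 35.7 and 12.7 CPM in eur1-11, 134, 131 and 78.2 CPM in WT) and SUS4 (60.4, 61.0 and 61.0 CPM in WT). The rule used the WT level at 96 h, and both genes were among the 6 named for the lowest ratio of eur1-11 to WT there. This comparison was therefore not tested.

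**Figure D4:**
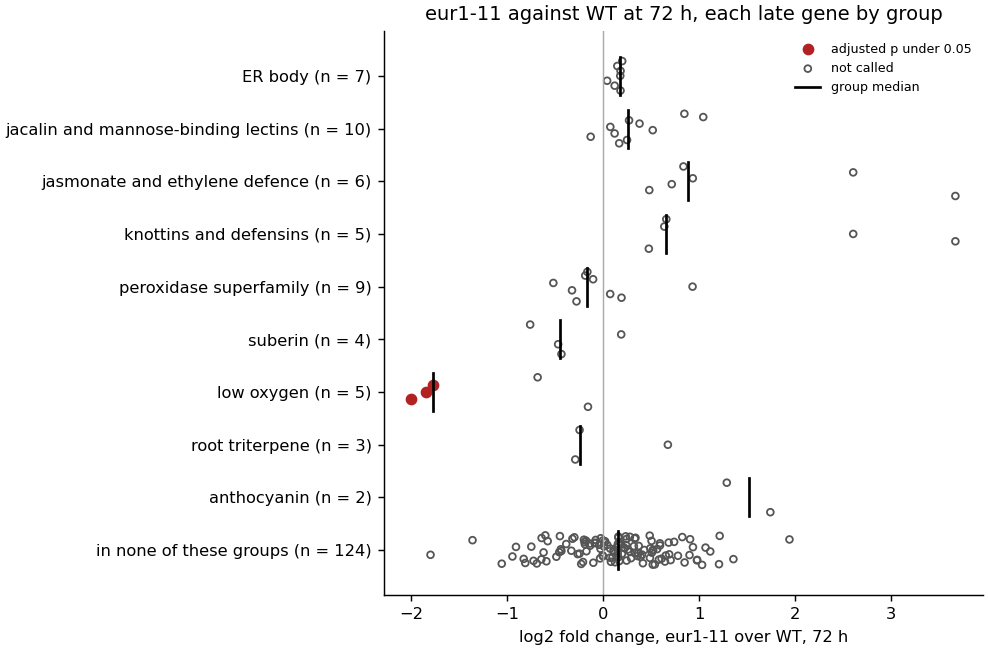
Log2 fold change of eur1-11 over WT at 72 h for each of the 172 late genes, by functional group; black bars are group medians, filled red points are genes with an adjusted p under 0.05. The 3 filled points are low-oxygen genes (AT4G33070 at -1.99, FTM1 at -1.84 and SUS4 at -1.76), and the PDF1.2c and PDF1.2 points at 3.67 and 2.60 appear in both the jasmonate and the defensin rows.

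Suberin genes made up 4 of the late genes from a list of 19. CYP86A1, the fatty acid hydroxylase of root suberin, had no count in eur1-11 at 0 h and 19.1, 19.7 and 42.6 CPM at 96 h, at least 452-fold higher, against 3 counts over the group. It had 27.1, 25.3 and 37.1 CPM at 72 h, so its libraries of 72 and 96 h overlapped, and replicate 3 was the highest at both times. FAR4, FAR5 and FAR1, reductases that make the fatty alcohols of suberin, were higher in eur1-11 at 96 h than at 24 h (FAR4 5.54 ± 0.52, adjusted p = 3.57e-07; FAR5 6.11 ± 0.87, adjusted p = 2.34e-05; FAR1 3.15 ± 0.92, adjusted p = 0.011). Of the 18 suberin genes tested, 15 were higher, 1 was lower and 2 did not pass at 96 h against 24 h.

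Peroxidase superfamily genes, whose class III members act in cell walls, were 9 of the late genes (5.23%), against 0.238% of all genes tested. They were higher in eur1-11 at 96 h than at 24 h in 9 of 9 cases. Of the 51 superfamily genes tested, 18 were higher and 5 lower, against 17.1% and 18.9% of all genes. Another set of 32 tested genes with peroxidase names in the annotation held 0 late genes, with 5 higher and 4 lower. DOX1, annotated in the superfamily and known as a fatty acid alpha-dioxygenase, had 2233, 2057 and 1046 CPM in eur1-11 at 96 h and 38.0, 29.2 and 5.11 CPM at 24 h (6.23 ± 0.86, adjusted p = 1.8e-05). At 72 h it had 1953, 1924 and 1025 CPM, which overlapped with 96 h. The adjacent pair AT2G38380 and AT2G38390 differed in time. AT2G38380 had 136 ± 31.8 CPM in eur1-11 at 72 h and 158 ± 29.1 CPM at 96 h, whereas AT2G38390 had 14.5 ± 11.4 CPM and 54.9 ± 13.97 CPM (SD, n = 3 each). Both are annotated as peroxidases, and how reads common to both were counted is uncertain.

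Root triterpene genes were the other group with root-type expression. PEN1 and its chromosome 4 neighbour CYP705A1, and the thalianol pathway gene CYP708A2, were late genes, and all 5 tested of a list of 8 triterpene genes, also made after results were seen, were higher in eur1-11 at 96 h than at 24 h. Their log2 fold changes were 6.33 ± 0.39 for PEN1 (adjusted p = 3.16e-09), 3.64 ± 0.43 for CYP705A1 (adjusted p = 5.49e-06) and 3.09 ± 0.43 for CYP708A2 (adjusted p = 2.52e-05). Lists of root founder cell genes, xylem wall, cambium, cell division, salicylate defence, senescence, nutrient uptake, sulfur shortage, camalexin and ABA response held 0 late genes each. With 172 late genes among 33323 nuclear genes, lists of 7 to 21 genes can hold 0 by their size alone. UGT72E2, which glucosylates monolignols, was the single late gene of the phenylpropanoid list, with 94.5 ± 7.97 CPM in eur1-11 and 85.4 ± 18.5 CPM in WT at 96 h (SD, n = 3 each) and a log2 fold change in eur1-11 of 3.59 ± 0.29 over 24 h (adjusted p = 8.52e-08).

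The anthocyanin enzymes DFR and LDOX had uneven replicates. DFR had 75.2, 84.7 and 19.6 CPM in eur1-11 at 72 h, against 39.8, 37.9 and 2.76 CPM in WT (1.29 ± 0.99, adjusted p = 1). LDOX had 49.9, 56.5 and 16.4 CPM in eur1-11, against 20.3, 16.7 and 2.02 CPM in WT (1.74 ± 0.97, adjusted p = 0.923). For both genes eur1-11 was higher than WT in each of the 3 same-numbered pairs, while the groups overlapped across numbers. Both passed without replicate 3 (DFR 1.06, adjusted p = 0.000668; LDOX 1.53, adjusted p = 0.000107) and with only the libraries of these groups (DFR 1.403, adjusted p = 0.0285; LDOX 1.82, adjusted p = 0.00785). Neither gene met the late rule in eur1-11, where DFR already had 87.8, 106 and 7.32 CPM at 48 h. Both were higher at 96 h than at 24 h in eur1-11 (DFR 2.74 ± 1.05, adjusted p = 0.0471; LDOX 2.71 ± 1.02, adjusted p = 0.0431), calls that were lost without the replicate block and with DESeq2. Neither was called higher at 96 h than at 0 h in eur1-11 (DFR 2.03, adjusted p = 0.107, and LDOX 1.47, adjusted p = 0.214). At 0 h the eur1-11 means of both genes were already 6.31 to 6.9 times those of WT, a difference that was not tested.

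The other 124 late genes belonged to none of these groups. They included 6 GDSL lipases or esterases (3.49% of the 172 late genes, against 0.289% of all genes tested) and 5 TRAF-like proteins (2.91% against 0.14%). They also held 4 lipid transfer proteins (2.33% against 0.2%), 4 serine carboxypeptidase-like proteins (2.33% against 0.149%) and 4 leucine-rich repeat kinases (2.33% against 0.577%). The wider class of protein kinases and receptors made up 4.65% of the late genes, against 5.65% of all genes tested. Among the more abundant of the 124 were antioxidant enzymes. The dehydroascorbate reductase DHAR1 had 3122, 3222 and 1457 CPM in eur1-11 at 96 h and 625, 591 and 911 CPM at 24 h (1.65 ± 0.44, adjusted p = 0.00636). The superoxide dismutase CSD1 had 468, 509.9 and 617 CPM in eur1-11 at 96 h and 89.6, 79.7 and 60.9 CPM at 24 h (2.66 ± 0.36, adjusted p = 1.32e-05). In neither gene did the 96 h and 24 h libraries overlap. The chlorophyllase CLH1 (1.80 ± 0.35, adjusted p = 0.000617), the arginase ARGAH2 (1.92 ± 0.53, adjusted p = 0.00782) and the terpene synthase TPS04 (2.42 ± 0.67, adjusted p = 0.00797), all known as jasmonate-responsive, were also higher. The calls of ARGAH2 and TPS04 were lost without replicate 1 (adjusted p = 0.114 and 0.109) and without replicate 2 (adjusted p = 0.134 and 0.121). Transcription factor genes among the late genes included LBD41, TGA9, NAC2, MYB59, MYB113, bZIP70 and NF-YA2. BAM5, a beta-amylase with 255, 278 and 21.5 CPM in eur1-11 at 96 h against 71.1, 68.1 and 57.2 CPM at 24 h (0.87 ± 0.69, adjusted p = 0.349), and the receptor kinase gene AT2G28970 (1.499 ± 0.75, adjusted p = 0.129) missed the test beside VSP2.

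Some late genes lay near each other. With a gap of at most 20000 bases, 45 of the 172 (26.2%) fell into 20 clusters. The share for all genes was not computed. The largest was chr3:5566083-5599224, with the lectin or lectin-like genes NSP1, PBP1, JAL31, JAL33, JAL34 and JR1. Others paired VSP2 with VSP1, PDF1.2 with PDF1.2c, FAR4 with FAR5, CYP705A1 with PEN1 and AT2G38380 with AT2G38390, and genes of unlike annotation, such as LOX2 with LAS1. Of the late genes, 31 overlap another gene, 30 of them a gene on the opposite strand, and the strand setting of the counting is not given in the sources used here.

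The same rule applied to eur1-11 found 163 genes, 112 of them shared, which is 65.1% of the WT list and 68.7% of the eur1-11 list. Of the 60 WT genes outside the eur1-11 list, 30 had a 96 h level under 2 times that of 48 h in eur1-11, 29 under 4 times that of 24 h, 8 under 4 times that of 0 h and 12 under 10 CPM. The ER body group was split, with 3 of 7 inside, while 8 of 10 lectins, 8 of 9 peroxidases, 4 of 4 suberin genes and 3 of 5 low-oxygen genes were inside. The ratio of eur1-11 to WT means had a median over the 172 genes of 1.0, 1.42, 1.39, 1.11 and 0.984 at the 5 times in order, against 0.996, 0.984, 1.01, 0.981 and 0.994 over all nuclear genes of 1 CPM or more. Since WT had to be low at 24 and 48 h to be chosen, a ratio above 1 at these times is partly fixed by the rule. Over the 223 genes that met it in either genotype, the medians were 1.0, 1.28, 1.24, 1.16 and 1.05. At 72 h, 109 of the 172 genes had a higher mean in eur1-11, 12 by at least 2 times, and 5 had at most 0.5 times the WT mean.

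Genes next to the thresholds were much alike on either side. BGLU31 (10.08 CPM), AT4G22610 (10.27 CPM) and AT4G13860 (10.28 CPM) were just inside the 10 CPM limit in WT at 96 h, and AT1G61050 (9.986 CPM), AT4G31100 (9.79 CPM) and AT1G44160 (9.721 CPM) just outside. For the ratio of 96 h to 24 h, JR1 (4.005), TBL26 (4.008) and RLP40 (4.021) were just inside, and AT1G17830 (3.983), TSA1 (3.907) and AT3G27220 (3.85) just outside.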

How the data were processed

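RNA from 30 petiole samples was sequenced by the authors, who checked reads with FastQC, aligned them with STAR to TAIR10 and counted them per gene with HTSeq, according to the submitters' processing notes, with versions and strand setting not given in the sources used here. The deposited table holds whole-number counts per gene, not normalized, for 33602 genes. Rows that name no gene (no feature, 3.58% to 6.76% of the counts; ambiguous, 2.43% to 3.45%) and organelle genes were left out of the levels. CPM was computed over nuclear gene counts, so a rise of some genes lowers the share of others, and CPM is not corrected for gene length.

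Differences were tested with edgeR 4.0.16 in R 4.3.3 (quasi-likelihood F test, TMM scaling, filterByExpr by group, 1 term for each of the 10 groups, all 30 libraries, replicate number as a block as in the study's methods, Benjamini-Hochberg adjustment over 21472 genes), with the edgeR calls made at an adjusted p under 0.05. All 172 late genes passed the filter. The SE was derived from F as the absolute log2 difference over its square root. The test was also run on simulated counts without a replicate effect, which does not check the calls that depended on the replicate block. Over 16226 genes, deviations from group means correlated at over 0.1 in 15 of 15 pairs of libraries with the same replicate number at the same time (mean r 0.518), and in 10 of 30 pairs with unequal numbers (mean r -0.211). Each deviation is from the mean of 3 libraries, so a positive mean for same numbers forces a negative one for unequal numbers. Replicate 3 stood apart in every group, so this check does not show that replicates 1 and 2 were paired across genotypes. No 2 replicates agreed within sampling noise.

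The late genes and the gene lists were chosen with earlier results of these data known. Named genes were EAR1, the 12 late genes with the highest WT mean at 96 h, the 6 with the lowest and the 6 with the highest ratio of eur1-11 to WT at 96 h, genes past the test at 72 h, genes not passing 96 h against 24 h, late genes in a list and those nearest a threshold. Others (PDF1.3, scpl30, AT4G23680, CSD1, CLH1, ARGAH2, TPS04, the JAL genes other than JAL23, AT2G38380, AT2G38390, PDF2.1, AT2G43530, AT2G43535, the transcription factors other than LBD41 and the genes of the last paragraph) were named after their values were seen. Identifiers of all 172 late genes, and of 32835 of the 33323 nuclear genes, matched RefSeq TAIR10.1, whose names and coordinates are given. Alternatives were no block, DESeq2 1.42.0, other scalings, no filter, fewer libraries and each replicate left out.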

Additional observations from a re-analysis of the deposited data

How the results depend on the processing

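The late rule gave 172 genes, 102 with ratios 1.5 times stricter, and 115 to 235 under the other alternatives, TMM scaling giving the fewest; 170 to 179 were found with 1 replicate left out. Of the genes chosen in WT, 112 also met the rule in eur1-11, 80 with TMM scaling and 98 to 117 with 1 replicate left out. In eur1-11, calls for 96 h against 0 h (163) and 24 h (169) stayed within 161 to 168 and 163 to 170 under the alternatives with all replicates, and with 1 replicate left out within 149 to 170 and 122 to 172. Scaling moved the median of all genes for 96 h against 0 h: 0.11 with TMM, 0.73 with nuclear totals and 0.27 with the upper quartile, while the median of the late genes was 5.03, 5.65 and 5.20.

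Later contrasts depended on the pairing by replicate number. Without the replicate block, calls for 96 h against 48 h were 79 rather than 125, those for 96 h against 72 h were 0 rather than 4, and those lower in eur1-11 than in WT at 72 h were 0 rather than 3. A fit to only the libraries of the groups compared gave 69, 14, 11 and, for genes higher at 72 h, 30 rather than 0. DESeq2 gave 9 for 96 h against 72 h. With 1 replicate left out the ranges were 11 to 160 for 96 h against 48 h, 0 to 75 for 96 h against 72 h, 0 to 21 for genes lower and 0 to 39 for genes higher at 72 h, the highest count each time without replicate 3. The cause was not tested, and shares of all genes called under the alternatives were not computed. Over the log2 fold changes of named genes, 562 values kept their side of the threshold, 28 newly passed and 70 no longer passed. With a call in either fit, 0 turned round, while changes of sign without a call count among the 562. With 3 libraries per group, genes of few counts at 0 and 24 h are limited by depth.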

Other observations

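A set of 51 genes met the late rule in eur1-11 and not in WT, which is a description since eur1-11 values chose them. Of these, 36 had a 96 h level under 2 times that of 48 h in WT, 24 under 4 times that of 24 h, 4 under 4 times that of 0 h and 18 under 10 CPM. CYP71A12 and CYP82C2, cytochrome P450 genes of indole defence compounds, had 1604 and 1158 CPM in eur1-11 at 96 h and 1239 and 1113 CPM in WT, and at 48 h 769 and 458 CPM in eur1-11 and 944 and 574 CPM in WT. AOX1D, an alternative oxidase gene of mitochondria, had 300.1, 304 and 81.7 CPM in eur1-11 at 96 h, against 105, 114 and 77.1 CPM in WT. The basic chitinase gene HCHIB had 425, 528 and 203 CPM in eur1-11, against 272, 285 and 239 CPM in WT. Replicates 1 and 2 of eur1-11 lay above all WT libraries for both genes, and replicate 3 of eur1-11 lay within or below the WT range. NAC046, a transcription factor gene linked to senescence, had 29.4, 29.0 and 18.8 CPM in eur1-11, against 12.8, 13.8 and 14.6 CPM in WT, with no overlap.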
